A study of Mus musculus with 12 samples.

Results

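Accessible regions that were called in wild-type bone marrow and in none of 3 kinds of leukaemia are described here. Peaks of 12 ATAC-seq libraries on chromosomes 1 to 19 were merged wherever they overlapped by 1 bp or more, which gave 43905 regions. Of these, 5313 (12.1%) held a peak in all 3 Control libraries and in none of the 9 leukaemia libraries, and they are called Control-only regions below. They were thus chosen by the peak calls of all 12 libraries. They were 23.1% of the 23046 regions shared by all Control libraries. Their Control peaks and missing leukaemia peaks are therefore a description and were not tested. A region with no peak in a library was not called in it; it may still have been open to some degree.

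Each leukaemia carried 1 fusion gene: BRD9-NUTM1 in the group BN1, MLL-AF9 in MA9 and MLL-ENL in ME. The Control cells carried none, and every group had 3 libraries. In BRD9-NUTM1 a bromodomain protein of SWI/SNF remodelling complexes is fused to NUTM1, a testis protein that binds the acetyltransferase p300, and the MLL fusions join the histone methyltransferase KMT2A to a subunit of transcription elongation complexes. All cells came from the bone marrow of C57BL/6 mice and were sorted by FACS for CD45.2, at 150000 cells per sample. The labels did not say how the fusions were introduced, the age of the mice, whether the replicates were separate animals, or whether Control and leukaemic cells passed the same gate beyond CD45.2.

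ATAC-seq marks DNA that a transposase can reach, mostly promoters, which lie at gene starts, and enhancers, which act from a distance and are more often specific to a cell type. Healthy marrow holds maturing neutrophils, B cells and red cell precursors beside rarer lineages, each with its own enhancers, whereas an acute leukaemia replaces them with immature cells that stop maturing early. In bulk cells, fewer cells of a type and less open chromatin per cell cannot be told apart.

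Libraries of the groups differed in the number of peaks. Lists held 3567 ± 634 peaks in BN1, 32615 ± 858 in MA9, 9275 ± 632 in ME and 27024 ± 1310 in Control (mean ± SD, n = 3 each), and the read depth behind them is unknown. The MA9 lists, the longest of the leukaemia lists, nearly set the membership: 5317 regions shared by Control had no MA9 peak, and 4 of those had a BN1 or ME peak. The 4 exceptions lay nearest to Macrod2, Flrt3, Skint3 and Bcl11a, and were named after their values were seen. Membership also depended on how many peaks a list held. With every list cut to its 3011 strongest peaks, 498 regions were Control-only, and 33 of them overlapped one of the 5313; with peaks of signal 400 or more, 2885 regions were. The name Control-only therefore stands for the calls in these lists and not for closed chromatin in leukaemia. Ptprc, which encodes the sort marker CD45, had 7 regions shared by all Control libraries, none of them Control-only. Its region at chr1:138191600-138192581 was called in all 12 libraries. As every group was sorted for CD45.2, this cannot check which group a library belongs to. The Ptprc region that touched an end of the gene (chr1:138174786-138175971; mean Control percentile 81.5) was called in every Control and MA9 library and in no BN1 or ME library.

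The promoters of 5 lineage genes lay wholly in a Control-only region and are shown because they carried some of the strongest Control-only peaks. They came from RefSeq windows on GRCm38.p6 that run from 250 bases before a gene's start to 50 after it, written 5′ to 3′ along the gene. Capitals mark matches, on either strand, to short letter strings that blood transcription factors are known to read. S100a9 encodes a subunit of calprotectin, a major protein of neutrophil cytosol, and its window is chr3:90695672-90695971 on the minus strand. Retnlg encodes a resistin-like protein of granulocytes, at chr16:48872358-48872657 on the plus strand. Hba-a1 encodes alpha globin, at chr11:32283422-32283721 on the plus strand. Hbb-bs encodes adult beta globin, at chr7:103827879-103828178 on the minus strand. Pou2af1 encodes a B cell coactivator of octamer-binding factors, at chr9:51213440-51213739 on the plus strand.
S100a9 promoter: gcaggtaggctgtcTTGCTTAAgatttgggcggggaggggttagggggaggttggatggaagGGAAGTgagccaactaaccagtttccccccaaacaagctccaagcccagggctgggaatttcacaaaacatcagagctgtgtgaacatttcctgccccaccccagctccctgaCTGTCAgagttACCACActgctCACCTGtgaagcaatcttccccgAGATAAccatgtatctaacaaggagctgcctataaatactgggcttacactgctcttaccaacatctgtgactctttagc
Retnlg promoter: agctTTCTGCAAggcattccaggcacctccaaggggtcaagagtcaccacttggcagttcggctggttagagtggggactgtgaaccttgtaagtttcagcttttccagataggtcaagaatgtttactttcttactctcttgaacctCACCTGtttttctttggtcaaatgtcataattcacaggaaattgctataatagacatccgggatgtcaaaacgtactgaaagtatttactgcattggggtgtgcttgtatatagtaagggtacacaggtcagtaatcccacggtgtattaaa
Hba-a1 promoter: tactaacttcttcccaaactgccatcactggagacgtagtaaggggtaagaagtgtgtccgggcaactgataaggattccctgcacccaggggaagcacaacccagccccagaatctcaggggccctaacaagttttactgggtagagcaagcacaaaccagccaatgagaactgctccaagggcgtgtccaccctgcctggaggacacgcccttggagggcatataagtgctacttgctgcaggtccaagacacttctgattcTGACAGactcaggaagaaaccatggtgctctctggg
Hbb-bs promoter: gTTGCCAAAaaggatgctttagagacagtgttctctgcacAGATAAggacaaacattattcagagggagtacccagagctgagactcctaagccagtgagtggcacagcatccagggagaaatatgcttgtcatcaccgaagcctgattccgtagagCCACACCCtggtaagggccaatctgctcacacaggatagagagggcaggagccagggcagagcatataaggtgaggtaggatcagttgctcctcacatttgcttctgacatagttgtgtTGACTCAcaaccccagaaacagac
Pou2af1 promoter: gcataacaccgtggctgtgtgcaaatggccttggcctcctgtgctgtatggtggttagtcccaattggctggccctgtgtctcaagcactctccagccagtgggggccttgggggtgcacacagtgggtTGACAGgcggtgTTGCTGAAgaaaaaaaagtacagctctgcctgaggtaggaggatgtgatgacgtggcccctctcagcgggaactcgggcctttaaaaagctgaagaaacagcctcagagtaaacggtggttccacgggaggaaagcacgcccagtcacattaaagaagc

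The S100a9 window held matches to 6 of the 11 strings searched, among them a C/EBP match (TTGCNNAA) at base -236 and an ETS match (GGAAGT) at base -188 from the start. Its GATA match (AGATAA) began at base -30. In the Hbb-bs window the KLF string (CCACACCC) stood at base -93, the GATA string at base -210 and the shared AP-1 and NF-E2 string (TGACTCA) at base 26 past the start. The Hbb-bs window also held a C/EBP match at base -249. Retnlg held a C/EBP match and an E-box (CAGGTG), Pou2af1 a C/EBP and a MEIS match (TGACAG), and Hba-a1 a MEIS match alone. A match is a string of letters and does not show that a factor was bound. The windows of Zfp36l1, Hba-a2 and H2-DMb2 also lay wholly in Control-only regions and are not printed. Their regions had mean Control percentiles of 94.1, 89.2 and 84.2, above the 81.2 of the region that held the Hbb-bs window. Hba-a2 held a MEIS match, and Zfp36l1 and H2-DMb2 held none of the 11 strings. All 5 windows shown were thus ones with a match.

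Control-only regions seldom sat on promoters. On the chromosomes with windows, all but chromosome 18, 392 of 5155 Control-only regions (7.60%) overlapped a promoter window, against 6801 of 17289 other regions shared by Control (39.3%). Only 137 of 31365 windows lay wholly in a Control-only region, and 6813 lay wholly in another region shared by Control. The 137 windows were poor in CpG, the dinucleotide that is dense in promoters of widely used genes: their median was 6 CpG and 53% GC, against 25 CpG and 63.7% GC in the 6813 windows, and 7 CpG and 53% GC over all windows.

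Motif strings were counted in these windows on both strands, and strings may overlap each other. AGATAA, read by GATA factors, was in 20.4% of the 137 windows, in 3.87% of the 6813 and in 11.2% of all windows. The motif of interferon regulatory factors (IRF) was in 9.49% of the 137 windows, 2.70% of the 6813 and 3.45% of all. The E-box CAGGTG was in 28.5%, 14.7% and 20.5% of the 137, the 6813 and all windows, the C/EBP string TTGCNNAA in 14.6%, 7.84% and 10.9%, and the RUNX string TGTGGT in 21.9%, 11.9% and 16.7%. The ETS string GGAAGT went the other way, with 23.4% of the 137 windows, 32.5% of the 6813 and 23.9% of all. The MEIS string TGACAG was in 21.9%, 16.3% and 19.04% of those windows, the KLF string in 4.38%, 4.15% and 3.57%, and TGACTCA in 4.38%, 2.79% and 5.26%. The EBF motif was in 2.19%, 0.807% and 0.921% and the octamer (ATTTGCAT) in 2.19%, 1.42% and 1.75% of the 137, the 6813 and all windows, which was 3 of the 137 windows for each. Base composition differed between the sets as given above, and its part in these shares was not tested.

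Signal, the peak caller's area under its significance curve, was ranked within each library because it had no common scale, so that percentile 100 is the strongest peak of a library. The strongest Control-only region covered S100a9 (chr3:90691227-90696108, 4882 bp), at percentiles 99.96, 99.97 and 99.97 in Control 1, 2 and 3. Lyz2, which encodes the lysozyme of myeloid cells, followed with a region of 4041 bp (chr10:117274735-117278775) at percentiles 99.4, 99.3 and 99.6. Hba-a1 had a region of 2918 bp (chr11:32283248-32286165) at percentiles 99.1, 98.1 and 98.9. The 3 Control libraries therefore ranked these regions alike, within about 1 percentile. Hba-a1 and Hba-a2 are nearly identical copies, so how reads were shared between them is uncertain.

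The rest of the 15 strongest regions had mean percentiles from 93.5 to 98.6. Retnlg came next (98.1, 98.3 and 99.2), and a region 415 bp from Cacnb1, a calcium channel subunit gene, followed it (98.6, 98.2 and 98.8). A region 48.2 kb from Hdhd5 had percentiles of 96.60, 96.61 and 96.62. Then came regions nearest to Fam126a, to Hvcn1, which encodes a proton channel of phagocytes and B cells, and to Tmem184a. The next lay nearest to Traf1, an adaptor of tumour necrosis factor receptors, Sag, an arrestin of the retina, and Zfp36l1 and Btg2, which restrain growth through messenger RNA decay. Agpat4 and Cxcr2, the chemokine receptor that draws neutrophils out of the marrow, completed the list, and the Cxcr2 region (chr1:74154883-74156868) had percentiles of 94.4, 92.4 and 93.6.

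**Figure D1:**
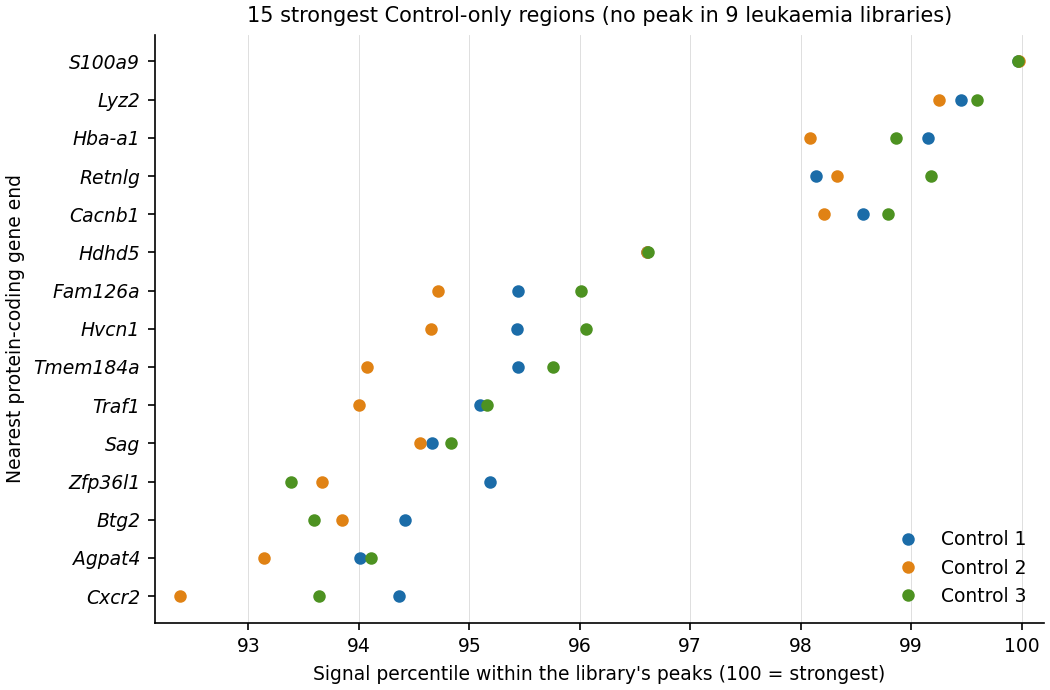
Signal percentile (x axis, 100 = strongest peak of a library) of the 15 strongest Control-only regions in the 3 Control libraries, 1 coloured point per library, with the nearest protein-coding gene on the y axis. S100a9 and Lyz2 lie above 99 in every Control library, and the Cxcr2 region has the lowest point, at 92.4.

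Such strong regions were the exception. The median percentile of Control-only peaks was 36.2 ± 4.04, against 61.7 ± 1.85 for peaks in other regions shared by Control (mean ± SD over 3 Control libraries, the same libraries in both). Their median width was 308 ± 9.50 bp, against 427 ± 12.5 bp. When the regions shared by Control were cut into deciles by mean percentile, 1056 of the 2305 weakest (45.8%) and 26 of the 2305 strongest (1.13%) were Control-only. Ranks of Control-only regions were also less steady, with a median range over the 3 libraries of 10.2 percentiles, against 5.36 for the others. These values describe the peaks that chose the regions, and nothing was tested on them.

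Regions just outside the rule were of 2 kinds. The 1334 regions with a peak in 2 of 3 Control libraries and no leukaemia library had a median percentile of 10.6. A further 619 regions had a peak in all Control libraries and in exactly 1 leukaemia library, which was an MA9 library for 617, a BN1 library for 2 and an ME library for 0. Their median percentile in Control was 35.6, against 35.9 for Control-only regions, and the lone MA9 peaks had a median percentile of 7.90 in their own library. Many regions thus missed membership by a weak peak in 1 MA9 list.

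**Figure D2:**
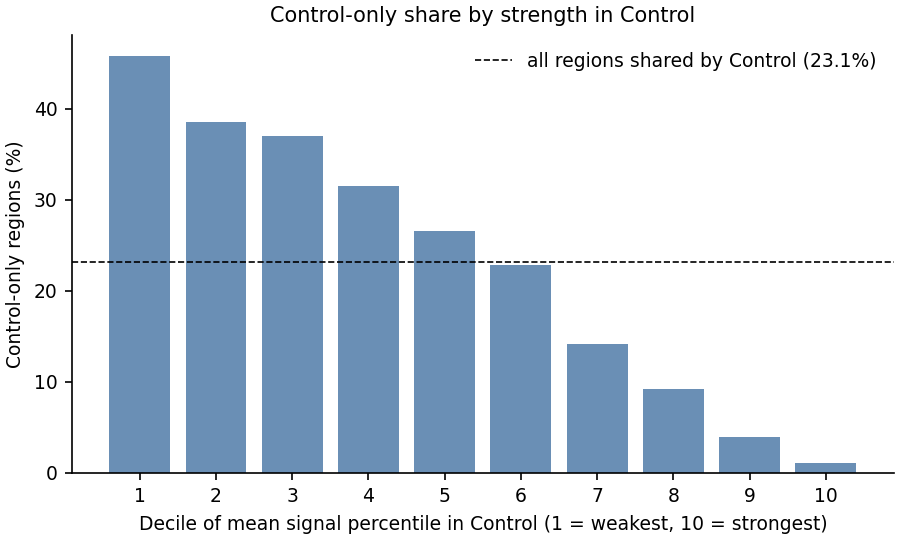
Percent of the regions shared by Control that are Control-only (y axis), by decile of their mean signal percentile in Control (x axis, 1 = weakest). The bars fall from 45.8% in the weakest decile to 1.13% in the strongest, and the dashed line marks 23.1% over all of them.

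Most Control-only regions lay away from gene ends. In each Control library, 89.03 ± 0.060% of Control-only peak summits lay more than 1 kb from either end of a protein-coding gene, against 56.9 ± 0.071% of summits in other regions shared by Control (mean ± SD, n = 3). The median distance was 11937 ± 19.5 bp, against 2030 ± 4.92 bp. At the level of regions, 276 Control-only regions (5.19%) touched a gene end, against 6652 (37.5%) of the others. More than 50 kb from a gene end lay 940 (17.7%) and 1566 (8.83%) of them. The centre fell inside a gene span for 3137 (59.0%) of the Control-only and 10848 (61.2%) of the other regions. The SDs are small because the 3 libraries share the same regions.

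Weak peaks are in general more often distant, so distance was also read at matched strength, a comparison chosen after seeing the data. In the weakest decile 86.1% of Control-only regions and 81.0% of other regions were more than 1 kb away. In the decile from percentile 55.8 to 64.8 the shares were 85.9% and 59.7%, and in the strongest 61.5% of 26 Control-only regions and 28.1% of the others. The Control-only share was the higher one in all 10 deciles. By chromosome, Control-only regions made up between 20.5% (chromosome 7) and 26.9% (chromosome 6) of the regions shared by Control.

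**Figure D3:**
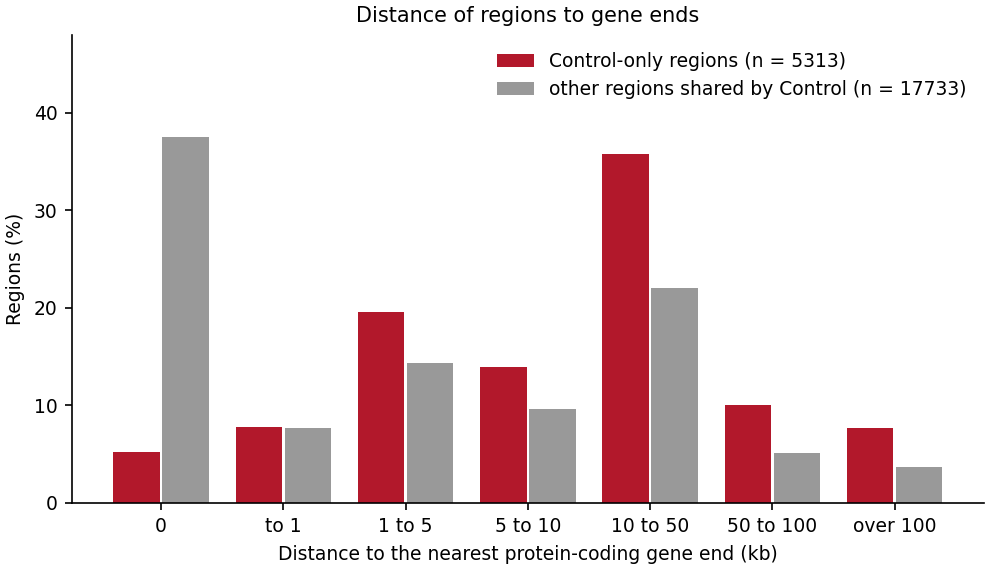
Percent of regions (y axis) by distance from the nearest protein-coding gene end (x axis, kb), for Control-only regions (red, left) and other regions shared by Control (grey, right). The grey bar at distance 0 reaches 37.5% and the red bar 5.19%, and the red bars are the taller ones in every bin past 1 kb.

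Each region was assigned to the protein-coding gene with the nearest end, which is not proof of a regulatory link. The Control-only regions fell to 3111 of the 10587 genes with a region shared by Control (29.4%). Most of these genes (1961) had 1 such region and 132 had 5 or more. Gene lists for the marrow lineages were read against 2 background shares: 29.4% of genes with a Control-only region, and 23.1% of regions shared by Control. The 29.4% comes from genes with a median of 1 region shared by Control. List genes often had more, such as 90 regions at the 13 B cell regulators, and a gene with more regions has more chances to hold a Control-only one. Gene counts of the lists are therefore not comparable with 29.4%, and the share of regions is the measure to compare. Of the 234 list genes with a region shared by Control, 154 had a Control-only region. The lists describe counts and were not tested. Their order depended on list length. With every peak list cut to its 3011 strongest peaks, only genes were counted. Neutrophil granule and maturation had the most genes with a Control-only region, 8 of the 9 that still had a region shared by Control. Plasma cells had 1 of 1, as had the list of mast cells, basophils and eosinophils. B cell regulators had 1 of 2 and B cell receptor and surface genes 0 of 1. Erythroid regulators had 0 of 3 and red cell membrane genes 2 of 3.

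B cell genes were among the lists with the highest shares. All 13 B cell regulators had a Control-only region, and 61 of their 90 regions shared by Control (67.8%) were Control-only. Pou2af1 had its 1 region, over the gene's start (chr9:51213011-51214259), at percentiles 92.9, 92.8 and 93.6 in Control 1, 2 and 3. Foxo1, a factor needed for early B cells, had 7 of 10 regions in the set, the strongest (chr3:52443755-52444688) 93.6 kb from the gene's end at percentiles 87.6, 86.7 and 88.1. Pax5, the factor that holds cells in the B lineage, had 6 of 7, with percentiles of 82.8, 83.8 and 84.6 for the strongest (chr4:44671008-44671851). Irf8, which acts in B cells and in monocytes, had 4 of 7 (strongest 83.6, 82.7 and 83.7), and its other 3 regions were called in every MA9 library. Ebf1, the factor that specifies the B lineage, was the gene with the most regions shared by Control that were all Control-only, 11 of 11.

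Genes of the B cell receptor and surface gave 20 of 21 genes and 41 of 60 regions (68.3%). The strongest lay beside Fcrla, an Fc receptor-like protein of B cells (87.7, 88.0 and 89.3), Cd72, an inhibitory receptor (90.9, 74.8 and 91.8), Ms4a1, which encodes CD20 (85.3, 82.3 and 88.4), and Cd79a, a signalling chain of the receptor (82.1, 80.00 and 80.8). The Cd72 region ranked lower in Control 2 than in Control 1 and 3, while the rest were alike in all 3. Every region shared by Control at 10 genes of this list was Control-only. Bank1, a scaffold of receptor signalling, had regions shared by Control and no Control-only one. Of the 19 regions of the B cell receptor and surface list that were shared by Control and not Control-only, 15 were called in all MA9, 3 in all ME and 2 in all BN1 libraries. For the B cell regulators this held for 23, 2 and 1 of 29 such regions.

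Among 10 MHC class II genes, whose products present peptides on B cells and other antigen-presenting cells, 6 had a Control-only region. They included H2-DMb2 (84.25, 84.28 and 84.15), H2-Aa (77.7, 74.8 and 77.8), H2-Ab1 (75.4, 72.4 and 72.95) and H2-Eb1 (66.0, 71.5 and 74.9). H2-DMa, H2-DMb1, H2-Oa and H2-Ob had none. Over the list, 11 of 30 regions (36.7%) were Control-only. Plasma cell genes gave 3 of 7 genes and 5 of 19 regions (26.3%), close to the background, with Mzb1 the strongest (71.2, 70.1 and 76.2) and Prdm1 and Xbp1 weaker, both below percentile 24 in every Control library. Sdc1, Tnfrsf17, Derl3 and Creld2 had none.

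Red cell genes had the highest share of all lists. Of 67 regions shared by Control at genes of the red cell membrane and surface, 57 (85.1%) were Control-only, at 23 of 25 genes, and 18 of these genes had no other region shared by Control. Slc4a1, the anion exchanger of the red cell membrane, had 2 of 2, the stronger one (chr11:102375186-102376339) at percentiles 92.8, 94.1 and 92.7. Gypc, a glycophorin, had 4 of 5 (strongest 80.5, 79.1 and 79.3), Ank1, the ankyrin that ties the spectrin network to the membrane, 4 of 4 (75.9, 76.2 and 80.2), and Hemgn, a nuclear protein of red cell precursors, 3 of 4 (76.2, 69.7 and 77.2). Icam4 and Tfrc, which encodes the transferrin receptor, had none. The 10 other regions of the list were called in all MA9 libraries for 7, in all ME libraries for 3 and in all BN1 libraries for 1.

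Globin and haem synthesis genes gave 11 of 13 genes and 17 of 25 regions (68.0%). After Hba-a1 came Hba-a2 (chr11:32296071-32297760; 92.05, 88.3 and 87.2), Hbb-bs (chr7:103825710-103826838; 84.9, 77.5 and 84.5) and Hbb-bt, the other adult beta globin gene (75.00, 70.9 and 76.0). Ppox and Slc25a37, an enzyme and a mitochondrial iron carrier of haem synthesis, had no Control-only region. Erythroid regulators gave 6 of 8 genes and 26 of 42 regions (61.9%). Zfpm1, the cofactor of GATA1, had 7 of 8 (strongest 73.4, 69.0 and 74.9), Lmo2, an adaptor of the GATA1 complex, 7 of 9 (66.0, 68.3 and 74.1), Sox6 4 of 4 (67.6, 57.3 and 64.4) and Gfi1b, a repressor needed for red cells and platelets, 4 of 5 (61.5, 47.5 and 62.4). Nfe2 and Ldb1 had none, and Gata1 and Alas2, on the X chromosome, could not be measured.

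MicroRNA hairpins seldom overlapped Control-only regions. Of 919 hairpins in the RefSeq table, 63 overlapped a region shared by Control. Of the 63, 5 overlapped a Control-only region: Mir144, Mir7668, Mir6973a, Mir6974 and Mir8094. That share was below the 23.1% of all regions shared by Control that were Control-only. Mir144, transcribed with Mir451a in red cell precursors, lay wholly in a region at chr11:78072475-78073107 with percentiles of 50.6, 46.4 and 39.0. It is shown because of its known lineage and was chosen after the values were seen; its mature strands, at chr11:78073010-78073032 and chr11:78073047-78073066 on the plus strand, have the seed, bases 2 to 8, in capitals.
miR-144-5p: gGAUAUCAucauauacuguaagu
miR-144-3p: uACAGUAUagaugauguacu

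Neutrophil genes held the strongest Control-only regions but a smaller share. Of 27 granule and maturation genes with a region shared by Control, 20 had a Control-only region, and 36 of 81 regions (44.4%) were Control-only. After S100a9, Lyz2, Retnlg and Cxcr2, whose values are given above, the other genes of the list had their strongest Control-only region at a lower percentile than Cxcr2. The 7 genes with none were Camp, Mmp8, Fpr2, Itgb2, Pglyrp1, Hp and Trem3, named after their values were seen. Of the list's 45 other regions, 41 were called in all MA9 libraries, 5 in all ME libraries and 1 in all BN1 libraries. S100a9 itself had 5 regions shared by Control, 4 of them Control-only, and the other one was called in all MA9 libraries.

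Of the 9 regulators of earlier myeloid cells, 5 (55.6%) had a Control-only region, against 29.4% of all genes. These gene shares are not comparable, because the 9 genes had 61 regions shared by Control, while the median gene had 1. Of the 61 regions, 9 (14.8%) were Control-only, below the 23.1% of all regions shared by Control. These were 2 of 7 at Spi1, which encodes PU.1 (strongest 55.9, 59.3 and 63.3), 3 of 14 at Runx1 (58.4, 44.1 and 64.6), 1 of 3 at Gfi1 (41.2, 39.8 and 47.2), 2 of 16 at Cebpb (29.6, 32.1 and 32.1) and 1 of 5 at Cebpa. Cebpd, Cebpe, Klf4 and Irf5 had none, and 49 of the 52 other regions of the list were called in all MA9 libraries. Monocyte and macrophage genes had the lowest share, 2 of 36 regions (5.56%) at 2 of 15 genes: Adgre1, which encodes F4/80 (49.2, 43.0 and 39.9), and the iron exporter Slc40a1 (19.4, 16.3 and 3.77). Of their 34 other regions, 31 were called in all MA9, 12 in all ME and 4 in all BN1 libraries.

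Genes of the NADPH oxidase, the enzyme of the respiratory burst, gave 3 of 23 regions (13.04%). The one at Cyba had percentiles of 18.9, 22.2 and 19.5. Promyelocyte granule genes gave 4 of 13 regions, 3 at Ctsc (57.3, 41.5 and 62.6) and 1 at Cst7, and none at Prtn3 or Srgn. At stem and progenitor genes 10 of 35 regions (28.6%) were Control-only, of which 5 lay at Erg (47.2, 37.2 and 50.2), with weaker ones at Myb, Cdk6, Cd34 and Sox4. Meis1, Hoxa9 and Mn1 had none, with only 2, 1 and 1 regions shared by Control. The same list had 53 regions called in all MA9 libraries and nowhere else in the 9 other libraries, against 23 or fewer for every other list. These are raw counts, out of 8577 such regions at 5073 genes. The lists differ in their number of genes, 18 here and 9 in the list with 23, so the counts are not comparable shares.

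**Figure D4:**
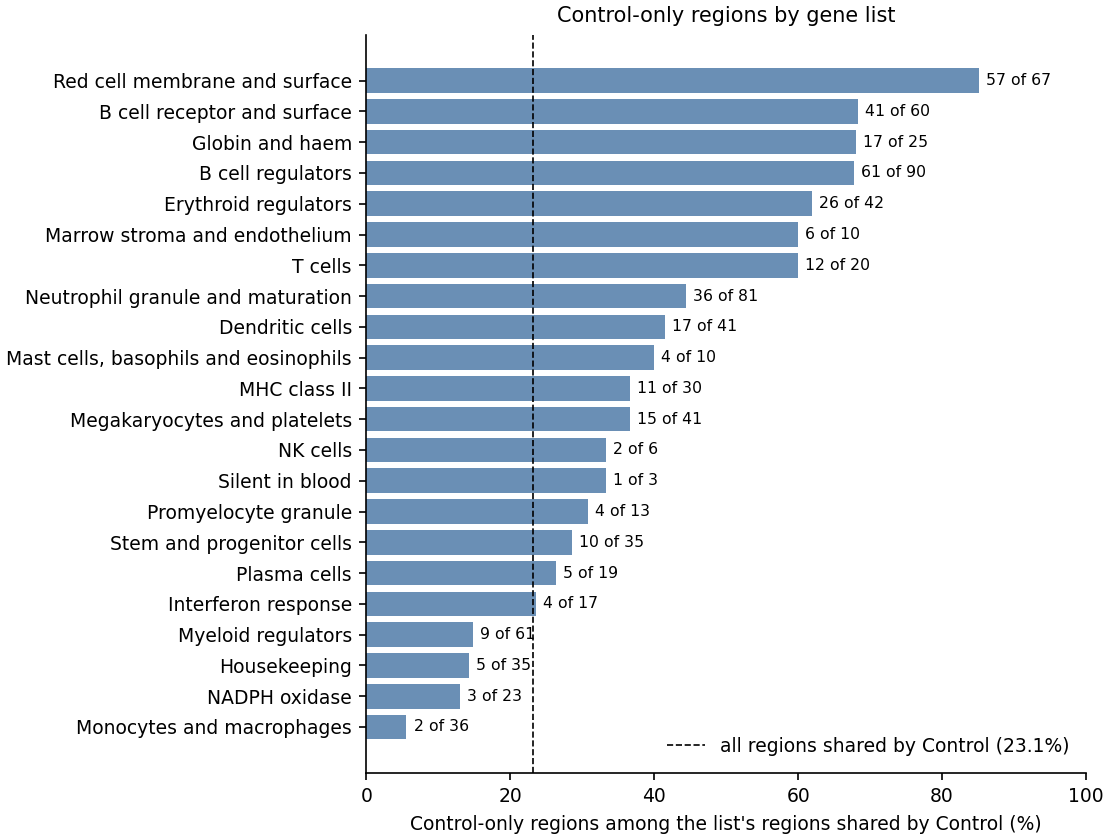
Percent of a gene list's regions shared by Control that were Control-only (x axis), with the counts beside each bar. Red cell membrane genes reach 85.1%, B cell and globin lists lie near 68%, and myeloid regulators, housekeeping, NADPH oxidase and monocyte genes fall below the dashed line at 23.1% of all regions.

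Rarer lineages and the control lists were measured in the same way. T cell genes gave 12 of 20 regions (60%) at 5 of 10 genes. The strongest lay at Ccr7 (80.9, 79.4 and 81.2), a homing receptor that B cells share, and others at Cd247 and Tcf7. Cd3d, Lck, Lat, Gata3 and Ctla4 had none. Dendritic cell genes gave 17 of 41 regions, 9 of them at Id2 (71.4, 65.2 and 69.9), then Ccr9, Itgax and Tcf4, and none at Batf3, Bst2 or Irf7. All 10 megakaryocyte genes with a region shared by Control had a Control-only one, but these were 15 of 41 regions, strongest at Itgb3 (73.5, 75.6 and 76.6), Fli1, Selp and Gp9. Mast cell, basophil and eosinophil genes gave 4 of 10 regions, 3 at Hdc, the enzyme that makes histamine (85.3, 87.9 and 89.3), and 1 at Il5ra, with none at Ccr3, Siglecf or Alox15.

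NK cell genes gave 2 of 6 regions, both at Xcl1, and none at Klrb1c. Marrow stroma and endothelium gave 6 of 10 regions (60%), at Pecam1, Cdh5, Pdgfrb and Adipoq and not at Cxcl12, all below percentile 66 in every Control library. With few regions each, this list and the T cell list stood near the 61.9% of erythroid regulators. High shares were thus not particular to B cell and red cell lists. Interferon response genes gave 4 of 17 regions (23.5%), at Oasl2, Rtp4 and Ifih1. Housekeeping genes gave 5 of 35 regions (14.3%), among them regions at Actb, Rps3 and Ywhaz. The Actb region touched an end of the gene and stood at percentiles 86.7, 86.3 and 88.5. Genes silent in blood gave 1 of 3 regions, beside Gfap, and none at Gcg.

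Some Control-only regions came in runs with no other region between them: 2355 of them (44.3%) stood in runs of 2 or more, and 2958 stood alone. Runs of 4 or more numbered 93. No such share is given for other kinds of region, so 44.3% is not read as particular to these. The longest run held 14 regions over 1085 kb around Ebf1 and towards Clint1 (chr11:44765060-45850286), at mean percentiles from 12.96 to 71.3. Bach2, a repressor that delays plasma cell fate, had a run of 13 over 97.6 kb (chr4:32160885-32258446; 6.08 to 71.0), with 1 region over the gene's end. A run of 9 (chr6:70709266-70791122; 10.1 to 67.6) was assigned to Rpia and spanned the J segments and the constant region of the immunoglobulin kappa locus. A run of 8 regions covered the Gimap genes (chr6:48707847-48771073, 14.1 to 85.1), which encode GTPases of lymphocytes. Another run of 8 covered the low-coordinate end of the immunoglobulin lambda locus (chr16:19002662-19152904, 36.3 to 75.7), assigned to Hira and Olfr164. In the lambda run 4 of the 8 regions lay at lower coordinates than all 9 annotated segments of the locus. The run ended inside the locus, which spans chr16:19061752-19260844. Runs of 7 regions numbered 3, and were named after their values were seen. They lay at the beta globin cluster (chr7:103813220-103871017; 51.8 to 82.3), where the run reached beyond the embryonic gene Hbb-y on the side of the locus control region, at Msi2, which encodes an RNA-binding protein of blood stem cells (chr11:88551024-88619787; 18.2 to 69.7), and near Dmac2l, Cdkl1 and Atl1 (chr12:69733622-69863828; 8.70 to 86.0).

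The antigen receptor loci differed from each other in these counts. At the kappa light chain locus all 12 regions shared by Control were Control-only, and at the lambda locus 7 of 8 were. At the heavy chain locus 2 of 22 were Control-only, and 32 regions of that locus were called in all MA9 libraries, 0 in all BN1 and 1 in all ME libraries. The T cell receptor alpha and delta locus had 9 of 18 and the beta locus 1 of 5. These loci were chosen after the runs were seen, and segments of 1 locus resemble each other, so the placing of reads among them is uncertain.

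The 10 genes nearest to the most Control-only regions were Rpia (16 of 18 regions shared by Control), Bach2 (14 of 17), Ets1 (12 of 18), Ebf1 (11 of 11), Foxp1 (11 of 19), Sgms1 (11 of 20), Lipc (10 of 13), S1pr1 (10 of 11), Prkcb (10 of 15) and Rftn1 (9 of 13). Rftn1 was 1 of 8 genes with 9 Control-only regions and was listed for the highest percentile among them; the others were Eps15l1, Mef2c, Fam53b, Cd24a, Cbfa2t3, Id2 and Ago2. Ets1 and Foxp1 encode transcription factors of lymphocytes, and their strongest Control-only regions had mean percentiles of 78.0 and 61.1. S1pr1 encodes the receptor by which lymphocytes leave marrow and lymph nodes (81.7), Prkcb a kinase of B cell receptor signalling (73.8) and Rftn1 a raft protein of B cells (86.9). Sgms1 makes sphingomyelin (56.5), and Lipc, a lipase of the liver, had the highest value of the 10 (88.3). Of 2617 genes with 3 or more regions shared by Control, 63 had only Control-only ones, led by Ebf1 and by Cecr2, Hira, Gpr18 and Pakap with 6 of 6 each. The counts of the 10 genes depended on the lists. With lists of equal length all 10 had 0 Control-only regions. With a signal of 400 or more they had 3, 6, 9, 5, 2, 5, 7, 5, 7 and 4, in the order given above.

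Genes near Control-only regions could have other peaks in the leukaemia libraries. Among the 3111 genes nearest to a Control-only region, 1285 (41.3%) were also nearest to a region called in all MA9 libraries and no library of another group, which was 25.3% of the 5073 genes with such a region. Among the 7476 genes with regions shared by Control and no Control-only one, 2177 (29.1%) were. A gene with more regions around it has more chances to hold both kinds. The 2 sets of genes were not matched for this, so 41.3% and 29.1% are not comparable, and their difference was not tested. A flank can hold another Control-only region, as 44.3% of them stood in runs of 2 or more. By the rule such a neighbour has a peak in every Control library and in no leukaemia library. The gap between Control and the leukaemias in the flanks is thus partly set by the rule. The rule asks the same of the 3 leukaemias, though the MA9 lists nearly set the membership, and the 3 were compared with each other. Peaks per list did not overlap between them (3011 to 4258 in BN1, 8546 to 9663 in ME and 31968 to 33588 in MA9). A share that follows list length would separate them fully, so the test below cannot tell the leukaemias from their list lengths. A peak outside the region but within 10 kb of it was present for 11.1 ± 1.23% of Control-only regions in BN1, 55.7 ± 0.872% in MA9 and 23.4 ± 1.41% in ME libraries (mean ± SD, n = 3 each), and for 71.1 ± 1.76% in Control libraries, which chose the regions and were not tested. The BN1 libraries had 12.3, 9.82 and 11.2%, the MA9 libraries 56.7, 55.0 and 55.4% and the ME libraries 24.3, 24.1 and 21.8%, so the 3 leukaemias did not overlap. The difference among them had p = 0.00357 in an exact permutation test that reassigned the 9 libraries to the 3 leukaemias in all 1680 ways, which is the smallest p it can give. Other regions shared by Control had the same order of the 3 leukaemias, with a peak in the flank for 12.3 ± 1.97% of them in BN1, 62.8 ± 1.04% in MA9 and 25.9 ± 1.46% in ME libraries, and 59.2 ± 1.52% in Control (mean ± SD, n = 3 each), so the order was not particular to Control-only regions.

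The genes nearest to Control-only regions gave the same order. A peak within 1 kb of an end of such a gene was called for 15.8 ± 2.56% of genes in BN1, 60.7 ± 0.513% in MA9 and 36.1 ± 1.45% in ME libraries, and for 68.9 ± 1.08% in Control (mean ± SD, n = 3 each), with p = 0.00357 among the leukaemias in the same exact permutation test. Control-only regions themselves counted here: 276 touched a gene end and 415 lay 1 to 1000 bp away. Their peaks count for Control and are missing in the leukaemias, so the gap to Control is partly set by the rule. Genes with regions shared by Control and no Control-only one again had this order of the leukaemias. Their shares were 23.8 ± 3.91% in BN1, 82.3 ± 0.599% in MA9 and 54.9 ± 2.25% in ME libraries, and 80.5 ± 0.496% in Control. For these genes MA9 stood above Control, and by the rule each of their regions shared by Control had a peak in some leukaemia library. Differences between Control-only and other regions in these shares were not tested. Both values moved with list length. With the lists of equal length, which also chose other Control-only regions, the flank shares were 11.8% in BN1, 11.6% in MA9 and 10.4% in ME, and MA9 minus BN1 was -0.13 percentage points, against 44.6 with full lists. The gene-end shares were then 8.58%, 13.05% and 12.2%.

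**Figure D5:**
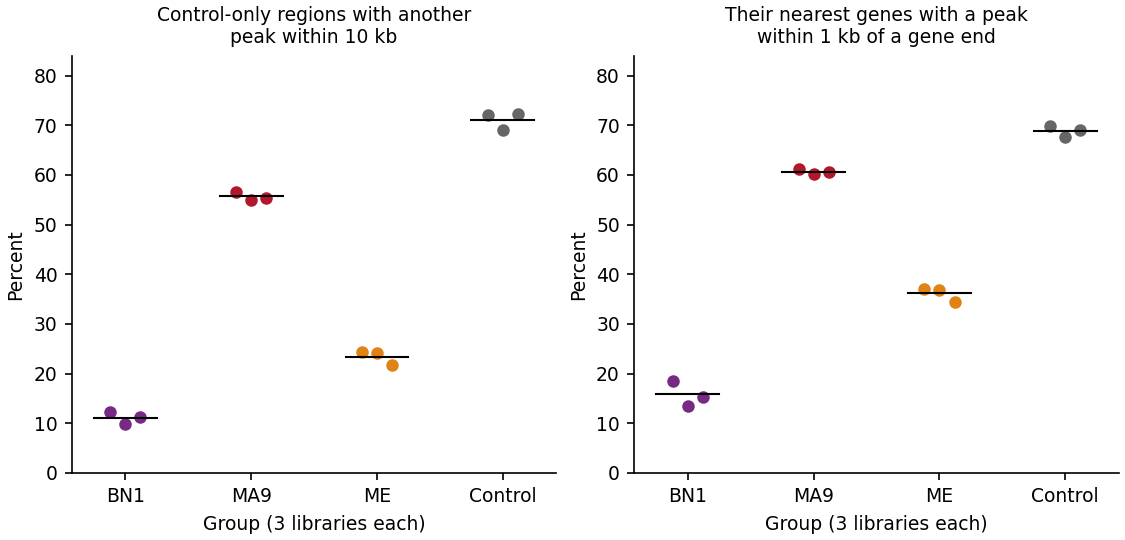
Percent of Control-only regions with another peak within 10 kb (left) and percent of their nearest genes with a peak within 1 kb of a gene end (right), 1 point per library and a line at the group mean. BN1 lies lowest, near 11% and 16%, ME between, and MA9, near 56% and 61%, is the leukaemia closest to Control. The gap to Control is partly set by the rule that chose the regions.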

How the data were processed

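Cells were sorted (150000 per sample) and transposed with a commercial kit, per the labels' protocols. The authors deposited 1 narrowPeak list per library on mm10 (GRCm38). Genrich (version not given), deepTools 3.5.1, Picard 3.2.0 and Bowtie2 2.5.4 were named in the submitters' processing notes. Peak signal, deposited by the authors, was never below 200.0 and was read as Genrich's area under its significance curve; no common scale joined the libraries, so it was used as a percentile within a library. The authors' −log10 values of p and q and their capped score, also deposited, were not used for any call. The lists carry no reads, so no counting interval could be given. No list was pooled over replicates as far as the labels say.

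Overlapping peaks were merged (Python 3.11.15, numpy 2.4.6, pandas 2.3.3, matplotlib 3.10.9). Of several peaks in a region, a library's strongest counted. Gene spans were RefSeq's on GRCm38.p6, without strand, so distance is to either end of the nearest protein-coding gene. Promoter windows and microRNAs came from RefSeq tables of the same assembly; the planned motif count at peak summits needed a genome and was not run. The members, the 22 gene lists (352 genes) and the motifs were chosen with earlier results of these data known. Named were the 15 strongest regions, up to 4 genes per list with the strongest regions, list genes without a Control-only region where these were 5 or fewer, the 10 genes with the most regions, the 5 longest runs and up to 8 promoters; a few genes that this rule would name are not reported here. The test was an exact permutation test, one-sided by construction and tested on simulated data. The labels did not say that replicates were separate animals, so p-values measure only the spread between these samples. The alternatives tried were a signal of 400 or more, peaks covering 50% of a region, merging over 500 bp, lists of equal length, 2 of 3 Control libraries, other distances, a replicate block and each library left out. No list held peaks on X or Y, Ahsp was not matched in the gene table, and peaks on unplaced sequences were left out.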

Additional observations from a re-analysis of the deposited data

Results flagged for a closer look

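The 3 leukaemias differed in the percent of Control-only regions with another peak within 10 kb: 11.1% in BN1, 55.7% in MA9 and 23.4% in ME (p = 0.00357, exact permutation test, the smallest p it can give). They also differed in the percent of the nearest genes with a peak within 1 kb of a gene end: 15.8% in BN1, 60.7% in MA9 and 36.1% in ME (p = 0.00357, the same exact permutation test). The same order held for other regions shared by Control, at 12.3% in BN1, 62.8% in MA9 and 25.9% in ME in the flanks, and for their genes, at 23.8% in BN1, 82.3% in MA9 and 54.9% in ME. The number of peaks per list moved with both, at 3567 in BN1, 32615 in MA9 and 9275 in ME.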

How the results depend on the processing

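With lists of equal length, 498 regions were Control-only, 33 of them overlapping one of the 5313; 53.9% of their summits lay over 1 kb from a gene end, against 28.3% in other regions shared by Control, their median percentile was 93.0, and 22 list genes in place of 154 had one. MA9 minus BN1 was then -0.13 percentage points in the flanks (p = 0.0321) and 4.47 at gene ends (p = 0.00714), against 44.6 and 44.9 with full lists (exact permutation tests). A signal of 400 or more left 2885 regions, with 86.8% of summits far from gene ends and a median percentile of 58.6. Where peaks had to cover 50% of a region these were 86.9% and 41.0, merging over 500 bp gave 90.03%, 2 of 3 Control libraries gave a percentile of 31.7, and 5 kb in place of 1 kb gave 68.04%. Leaving out 1 library gave 5313 to 6236 regions, 88.5 to 89.04% far from gene ends, percentiles of 33.6 to 36.2, 154 to 166 list genes, flank differences of 43.95 to 45.2 and gene-end differences of 43.7 to 46.2. All these settings moved the 22 list counts by over 1.5 times in 22 lists at equal length and 7 at a signal of 400, and in 3 or fewer lists under each other setting. Counts of named genes moved by as much for 86 genes at equal length, with 6 the same, and for 51 at a signal of 400, with 41 the same. Of those that moved, 84 and 48 fell. Under each other setting 20 or fewer moved. With labels permuted only within a replicate number (replicate block), the exact permutation test among the 3 leukaemias gave p = 0.0278 for both shares, the smallest possible. Same-numbered libraries did not deviate together (correlations from -0.121 to 0.121 over 18 pairs, 1 of them over 0.1), and 5 of 12 libraries correlated best with their own number. Without read numbers, weak or missing peaks cannot be told from low depth.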
